A study of Mus musculus with 4 samples.

Results

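PANETH cells are the cells to which the authors' 2 deposited per-cell tables give the Celltype name PANETH, the mature Paneth cells of the mouse duodenal crypt. Matched by library and barcode to the raw count matrices, they numbered 596 of the 15234 cells that the tables keep, and the same tables hold 833 cells named PANETH-PRE, their precursors. The study profiled single TOM+ cells sorted from duodenal crypts, in 2 wild-type libraries (WT, genotype Atoh1CreER-T2;R26RTom) and 2 libraries labelled APC-KO (genotype Atoh1Cre;Apcfl/fl;R26RTom in the sample labels, with the driver written Atoh1CreER-T2 in the series text). Mice of both groups carried the Atoh1 driver and the R26RTom reporter and received 2 intraperitoneal doses of tamoxifen (1 mg/mL) given 24 h apart, and crypts were taken 12 h after the second dose. Recombination therefore takes place in cells that express Atoh1, the transcription factor of the secretory lineage, so PANETH cells outside that sort are not covered, and the WT group carries no floxed Apc. The labels give no age, strain, animal or batch, so p-values measure only the spread between these libraries, which may be technical.

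Paneth cells sit at the base of the small intestinal crypts, between the Lgr5 stem cells. They fill large granules with antimicrobial proteins, above all alpha-defensins (cryptdins), which the metalloproteinase Mmp7 cuts to their active form in mice, and with lysozyme. They also make Wnt, Notch and EGF ligands that act on the neighbouring stem cells, and their own maturation is known to need Wnt signalling, which loss of Apc switches on in the cell that loses it.

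The 596 PANETH cells came from WT replicate 1 (106 cells), WT replicate 2 (200), APC-KO replicate 1 (16) and APC-KO replicate 2 (274). Their counts of unique molecular identifiers (UMIs, 1 per captured transcript) summed to 1475832, 2069916, 180977 and 1844840. APC-KO replicate 1 stood apart, with 356 kept cells against 3821 to 6243 in the other libraries. Libraries shared 20 cell barcodes among kept cells, of which 2 belonged to a PANETH cell in 1 library and 0 to PANETH cells in both. Apc had 25.1 and 31.9 CPM (a gene's UMIs scaled to a common total per sum) in the WT PANETH sums and 16.6 and 39.0 in the APC-KO sums (edgeR adjusted p = 0.669). These 3′ tags need not lie in the deleted part, so they do not check the genotype.

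The label was checked against Lyz1 (lysozyme), Defa24 (an alpha-defensin), Itln1 (intelectin 1, a lectin that binds microbial sugars), Mptx2 (a mucosal pentraxin) and Ang4 (a microbicidal angiogenin). Together these 5 genes held a median of 38.6% of a PANETH cell's UMIs in WT replicate 1 (106 cells) and 37.5% in WT replicate 2 (200 cells). The medians were 1.01% in APC-KO replicate 1 (16 cells) and 20.9% in APC-KO replicate 2 (274 cells). GOBLET cells, shown for comparison, had medians of 0.120% to 0.202%. They were not free of these genes, since Itln1 was found in 59.8% to 92.9% of them per library and Ang4 in 28.6% to 60.4%. The medians of PANETH-PRE cells were 2.39% to 6.76%. Both WT libraries thus lay above both APC-KO libraries, with a difference of the means of -27.1 percentage points (WT 38.1% ± 0.767 and APC-KO 11.0% ± 14.1, SD, n = 2 libraries each; exact permutation test over libraries, two-sided, p = 0.333, the smallest that 2 against 2 libraries allow). With only the cells that held at least 10 Lyz1 UMIs, a choice made after seeing the data, the difference was -5.66 points (exact permutation p = 1), and over the summed UMIs of all cells it was -9.17 points. Lyz1 is itself 1 of the 5 markers, so part of the change to -5.66 points is built into that choice.

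The name went against its markers in part of the APC-KO cells. In APC-KO replicate 1, 10 of 16 PANETH cells (62.5%, 95% exact binomial interval 35.4% to 84.8%) had under 10 Lyz1 UMIs, and the same number had under 5% of their UMIs in the 5 markers. Those 10 cells had a median of 3173 UMIs, 5.37% mitochondrial UMIs and 0.679% of UMIs from 14 enterocyte markers, while the other 6 cells had 18454.5 UMIs, 1.51% and 0.0625%. The 6 cells held 82.3% of the library's PANETH UMIs. In APC-KO replicate 2, 28 of 274 cells had under 10 Lyz1 UMIs and 17 had under 5% marker UMIs, and those 28 cells had a median of 12.0% of UMIs from 10 goblet markers against 6.95% in the other 246. Each WT library had 1 such cell by Lyz1 and 0 by the marker share. Of the cells near these limits, 0, 0, 0 and 5 cells of the 4 libraries had between 4% and 6% marker UMIs. Results between genotypes are given below for all PANETH cells and for those with at least 10 Lyz1 UMIs (105, 199, 6 and 246 cells).

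Lyz1 stood at 36110 and 39228 CPM in the WT PANETH sums and at 18538 and 26970 in APC-KO replicates 1 and 2. Defa24, the most abundant transcript of the cell, had 274132, 226252, 244771 and 192509 CPM in the same order. Itln1 had 53468, 78875, 35248 and 26736 CPM. All 3 were lower in PANETH-PRE, where Lyz1 had 12039, 16942, 4179 and 2072 CPM. Mptx2 had 10450, 13192, 8609 and 4880 CPM and Ang4 at 13566, 14389, 11383 and 6539 CPM. Both APC-KO values lay below both WT values for Lyz1, Itln1, Mptx2 and Ang4, and the groups overlapped for Defa24. RNA free in the suspension also carried these genes, since barcodes with 1 to 50 UMIs had 7787 to 23884 CPM of Defa24 and 234 to 1252 CPM of Mptx2.

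In GENCODE vM21 on GRCm38 (mm10), the 5 marker genes are protein coding and lie on 4 chromosomes: Lyz1 at chr10:117287797-117292868 (minus strand), Itln1 at chr1:171518122-171535294 (minus), Mptx2 at chr1:173274382-173277777 (minus), Ang4 at chr14:51763878-51773590 (minus) and Defa24 at chr8:21734494-21735471 (plus). The alpha-defensins form a cluster on chromosome 8, with Defa30, the second highest of the enriched genes described below, at chr8:21134642-21135598 (plus). The 250 bases before the start of Defa30, Lyz1 and Mptx2 are printed 5′ to 3′ from RefSeq (GRCm38.p6). These genes rise together between PANETH-PRE and PANETH, while their windows differ in exact matches to the motifs marked. Capitals mark the core site of the TCF/LEF factors, which carry the Wnt signal to DNA (CTTTGAT or its reverse complement ATCAAAG), and the TATA box (TATAAA, gene strand).
Defa30, chr8:21134400-21134649, plus strand: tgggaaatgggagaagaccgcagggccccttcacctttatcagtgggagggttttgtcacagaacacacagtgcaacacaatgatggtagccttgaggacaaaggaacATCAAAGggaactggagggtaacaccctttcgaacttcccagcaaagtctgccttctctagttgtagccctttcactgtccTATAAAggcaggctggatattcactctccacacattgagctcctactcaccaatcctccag
Lyz1, chr10:117292869-117293118, minus strand: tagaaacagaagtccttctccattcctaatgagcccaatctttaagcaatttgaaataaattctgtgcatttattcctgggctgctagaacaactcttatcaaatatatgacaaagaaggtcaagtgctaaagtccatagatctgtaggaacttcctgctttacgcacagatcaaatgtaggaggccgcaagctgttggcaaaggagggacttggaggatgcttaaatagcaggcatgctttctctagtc
Mptx2, chr1:173277757-173278006, minus strand: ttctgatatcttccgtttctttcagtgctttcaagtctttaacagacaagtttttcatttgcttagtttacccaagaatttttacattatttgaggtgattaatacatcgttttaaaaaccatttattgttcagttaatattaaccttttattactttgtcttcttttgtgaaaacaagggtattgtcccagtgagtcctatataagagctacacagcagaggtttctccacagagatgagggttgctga
Defa30 holds 1 TCF/LEF core and 1 TATA box in these exact letters, whereas the windows of Lyz1 and Mptx2 match neither string. Near its end the Mptx2 window holds tatataag, a TATA-like stretch that a search for TATAAA does not count. It is therefore not shown to lack a TATA box. RefSeq windows matched 12 of the 24 genes enriched in PANETH (next paragraph), with 13 windows in all. Of those 13 windows, 5 (38.5%) hold the TCF/LEF core on either strand, namely those of Defa21, Defa22, Defa30, Defa36 and 1 of the 2 of Mmp7. That Mmp7 window (chr9:7692091-7692340, plus strand) lies inside the gene, which starts at 7692090 in GENCODE. Over all 32851 windows of this length the share is 3.21%. The TATA box is in 38.5% of the 13 windows and 7.59% of all. The defensin windows are copies of one another and not separate observations, and a match is a description of letters, not of binding.

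Set against the 10 other Celltype names (PANETH-PRE left aside), 24 of 19386 genes (0.124%) had at least 4 times the CPM of every other name in each of the 3 libraries with at least 50 PANETH cells, after adding 5 CPM to both. The names were made from the expression of these cells, so the lists describe them and no test applies. Of the 24, 11 are named alpha-defensins and 4 are gene models that carry no proper name. The largest ratio in its weakest library belonged to Defa30, with a mean of 119245 CPM in PANETH and 709 in the next name, NON-EC, a fold of 93.3 to 220 over libraries. Mptx2 had 9507 CPM against 76.0 in NON-EC. Lyz1 reached 34103 CPM against 590 in GP. Pnliprp2, a lipase of the pancreatic lipase family, had 1069 CPM in PANETH and 11.8 in GOBLET.

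The list outside the antimicrobial genes was short. Clps, the cofactor of pancreatic lipase, had 5467 CPM in PANETH and 481 in GOBLET. Mmp7 had 5186 CPM against 918 in GP, the smallest ratios of the 24 (4.65 to 6.45 over libraries). Samd5 (124 CPM against 4.28 in SEC-PRO) and Habp2, a secreted serine protease (146 CPM against 19.8 in EEC-PRE), completed it. Mmp7, Habp2 and Samd5 differed from the rest in their level in PANETH-PRE, which was 4439, 133 and 106 CPM, close to that of PANETH.

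Alpha-defensins made up 46.1%, 41.8%, 42.8% and 31.9% of all PANETH UMIs in the libraries, ordered WT replicate 1, WT replicate 2, then APC-KO replicate 1 and APC-KO replicate 2. In PANETH-PRE the shares were 9.54%, 7.34%, 8.14% and 3.49%. These shares count the named Defa symbols and leave out the 4 enriched gene models, which lie on chromosome 8 among the defensins and held another 11.4%, 10.4%, 7.96% and 1.58% of PANETH UMIs and 0.0406% to 0.909% of those of PANETH-PRE. Of 22 listed alpha-defensin symbols, 16 reached 10 CPM on average in either type, and 11 of these 16 were at least 2 times higher in PANETH in WT replicates 1 and 2 and APC-KO replicate 2, against 26 of 6587 genes measured at that level (0.395%). The makeup of the defensin pool also differed between the types. Defa24 held 59.4%, 54.2%, 57.1% and 60.4% of the defensin UMIs in PANETH but 86.1%, 81.2%, 85.9% and 87.5% in PANETH-PRE. Defa30 held 29.9%, 37.3%, 31.4% and 20.1% in PANETH and 2.36%, 4.38%, 3.18% and 4.15% in PANETH-PRE. Defa17 held 9.64%, 12.0%, 5.06% and 5.91% of the PANETH-PRE pool, so Defa24 and Defa17 were its main members in WT, while Defa30 was the second member of the PANETH pool in all 4 libraries. Near-identical copies in this cluster may have had their reads split or dropped by the authors' counting, so values of single defensins are uncertain.

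**Figure D1:**
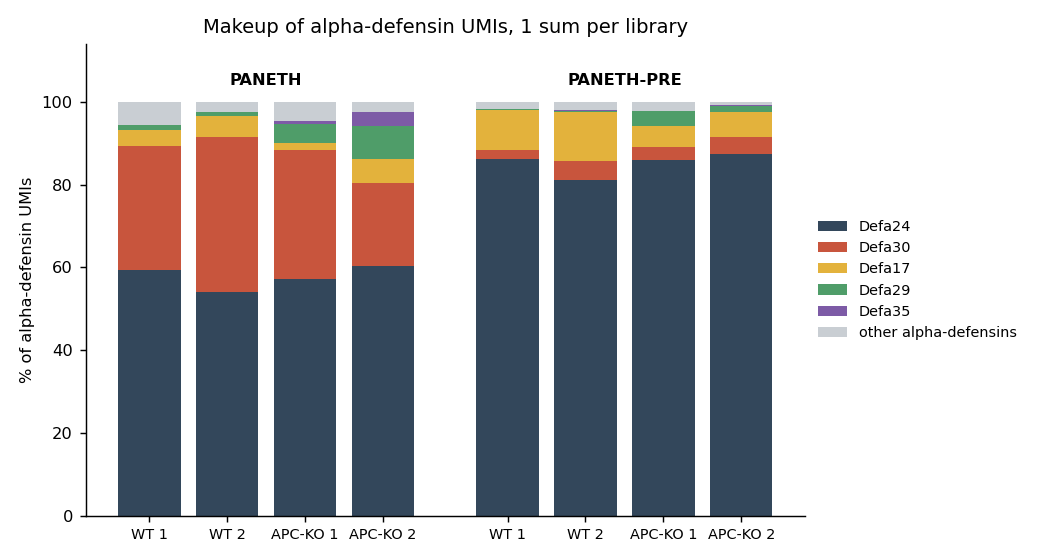
Makeup of the alpha-defensin UMIs (vertical axis, % of all alpha-defensin UMIs of the sum) in PANETH and PANETH-PRE of the 4 libraries, 1 stacked bar per library. Defa30 takes 20.1% to 37.3% of the PANETH bars and 2.36% to 4.38% of the PANETH-PRE bars, and Defa29 and Defa35 show mainly in the APC-KO bars.

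PANETH cells held more UMIs than their precursors in 3 of the 4 libraries. The difference lay in the enriched genes, a set chosen for its high levels in these PANETH cells. Median UMIs per cell were 12643.5 in PANETH and 4895 in PANETH-PRE of WT replicate 1, and 10371.5 and 4378.5 in WT replicate 2. They were 3552 and 9242 in APC-KO replicate 1, and 5954 and 4002 in APC-KO replicate 2. The order in APC-KO replicate 1 turned when only its 6 cells with at least 10 Lyz1 UMIs were used (2.00-fold, against 2.59-fold, 2.37-fold and 1.52-fold in WT replicates 1 and 2 and APC-KO replicate 2). The difference of the log2 ratios between genotypes was -1.71 (WT 1.31 ± 0.088 and APC-KO -0.40 ± 1.38, SD, n = 2 each; exact permutation test, two-sided, p = 0.333), and it was -0.51 with the Lyz1-bearing cells. A cut on the number of Lyz1 UMIs favours deeper cells, and it was not applied to PANETH-PRE. Part of the turned order and of the smaller difference is therefore built in. Median genes detected per cell were 1671 in PANETH and 1680 in PANETH-PRE of WT replicate 1, 1507 and 1603.5 in WT replicate 2, 1509.5 and 2406 in APC-KO replicate 1, and 1541.5 and 1594 in APC-KO replicate 2.

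The 24 enriched genes gave a mean of 9706 UMIs per PANETH cell and 738 per PANETH-PRE cell in WT replicate 1, and 7042 and 569 in WT replicate 2. In APC-KO replicate 2 they gave 2659 and 201. All other genes together gave 4217 UMIs per PANETH cell against 4312 per PANETH-PRE cell in WT replicate 1, 3307 against 3891 in WT replicate 2, and 4074 against 4318 in APC-KO replicate 2. The UMIs from all other genes were therefore 0.850 to 0.978 times those of PANETH-PRE in these 3 libraries, while the enriched genes were 12.4 to 13.3 times higher. The enriched genes were chosen as high in PANETH against other names in the same 3 libraries, so part of this split is built in. APC-KO replicate 1, with 16 and 11 cells, had 6604 and 1047 UMIs in the enriched genes and 4707 and 8699 in the others.

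**Figure D2:**
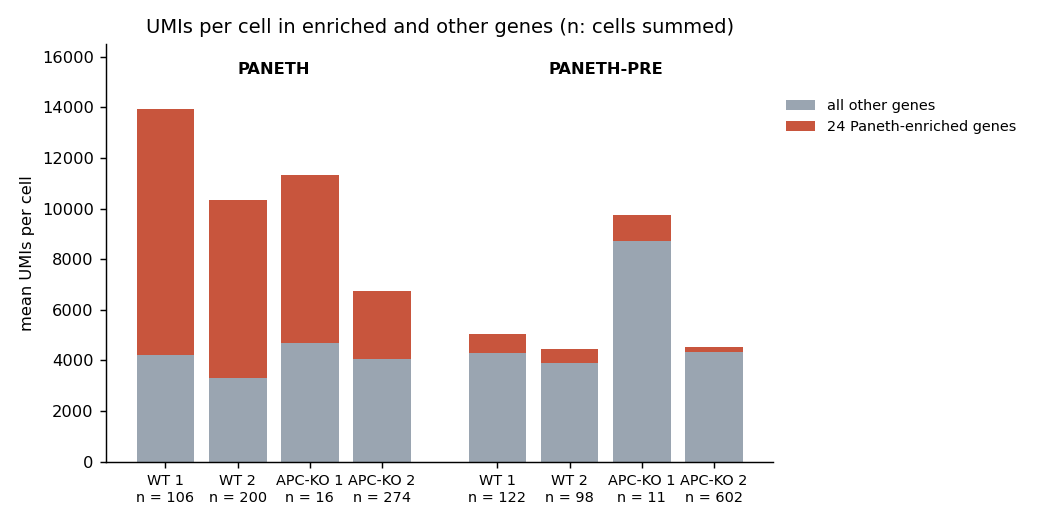
Mean UMIs per cell (vertical axis) in PANETH and PANETH-PRE of the 4 libraries, split into the 24 genes enriched in PANETH and all other genes, 1 bar per library sum. The part from other genes is of like height in both types except in APC-KO replicate 1, and the enriched part makes up 39.5% to 69.7% of the PANETH bars. The 24 genes were chosen as high in PANETH in these data, so part of this split is built in.

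This bears on how any gene compares between the 2 types. On the CPM scale, where defensins take up so much of the total, 28 of 15014 genes (0.186%) were at least 2 times higher in PANETH and 536 (3.57%) at least 2 times lower in each of the 3 libraries used, and the median log2 ratio of the 6587 measured genes was -0.93. With defensin, mitochondrial and ribosomal protein genes left out of the total, the median was -0.63 and 78 measured genes stayed lower (527 of 6587, 8%, with all genes counted). On the scale of UMIs per cell the median was -0.06, with 64 measured genes higher (0.972%) and 12 lower (0.182%). Ratios below are on the CPM scale and are to be read against that median of -0.93. They are descriptions, since the names used these genes.

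Among genes of at least 100 CPM, the 12 with the largest rise were 8 alpha-defensins, Mptx2, Ang4, Pnliprp2 and Clps. Defa30 had 137846, 155837 and 64052 CPM in PANETH and 2248, 3219 and 1447 in PANETH-PRE of WT replicates 1 and 2 and APC-KO replicate 2, a mean log2 ratio of 5.66 ± 0.24 (SD, n = 3 libraries). Mptx2 rose from 506 to 10450 CPM in WT replicate 1, from 1540 to 13192 in WT replicate 2 and from 26.5 to 4880 in APC-KO replicate 2 (mean log2 ratio 4.91 ± 2.15). In WT PANETH cells Mptx2 was found in 96.2% and 97.5% of cells, but in 44.5% of those of APC-KO replicate 2 and in 75% of the 16 of APC-KO replicate 1, where 1 cell gave 77.0% of its 1558 UMIs. GOBLET cells, which should lack Mptx2, had a UMI of it in 9.82%, 21.9%, 7.14% and 3.91% of cells, at median depths of 4904, 5252, 6906 and 3624 UMIs. In PANETH-PRE Mptx2 was found in 22.1%, 28.6%, 27.3% and 6.15% of cells, and a single cell gave 52.9% and 48.4% of its PANETH-PRE UMIs in the 2 WT libraries. Pnliprp2 had 1102, 1535 and 571 CPM in PANETH against 211, 227 and 29.4 in PANETH-PRE. Clps had 6263, 7159 and 2978 CPM against 1790, 1435 and 350.

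Chgb (chromogranin B, of endocrine granules) and Neurog3 (the factor that starts the endocrine programme) also passed the 2-fold rule, and few cells carried them. Chgb had 300.2, 15.9 and 304 CPM in PANETH, and 1 cell gave 91.2% of the 443 Chgb UMIs of WT replicate 1. Neurog3 had 16.9, 7.73 and 15.7 CPM and was found in 4, 3 and 10 PANETH cells. Both are named here after their values were seen.

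The 12 genes with the largest falls among those of at least 100 CPM included the cyclins Ccnd1 and Ccnd2, and Lgals2 had the lowest mean log2 ratio. Ccnd2 (cyclin D2) had 46.8, 22.7 and 135 CPM in PANETH and 221, 220 and 540 in PANETH-PRE of WT replicates 1 and 2 and APC-KO replicate 2, a mean log2 ratio of -2.37 ± 0.57 (SD, n = 3). Ccnd1 (cyclin D1, a Wnt target) had 15.6, 16.9 and 41.2 CPM against 107, 130 and 153. Ccnd1 was also lower per cell, at 0.217, 0.175 and 0.277 UMIs against 0.541, 0.582 and 0.689. Agr2, a disulphide isomerase needed for mucus, had 1359, 1360 and 1956 CPM against 9093, 8923 and 5152, and Txndc5, of the same enzyme family, 170, 205 and 177 against 674, 798 and 477. The galectins Lgals2 and Lgals4 had mean log2 ratios of -2.61 and -2.06. Golm1, Ceacam1, Ppp1r14d, Plac8, Smc1a and H2-Eb1 completed the 12, with mean log2 ratios between -2.09 and -1.47. In APC-KO replicate 1, not used to choose genes, all 12 were lower in PANETH as well, by 0.16 (Smc1a) to 2.58 (Ccnd2) on the log2 scale.

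**Figure D3:**
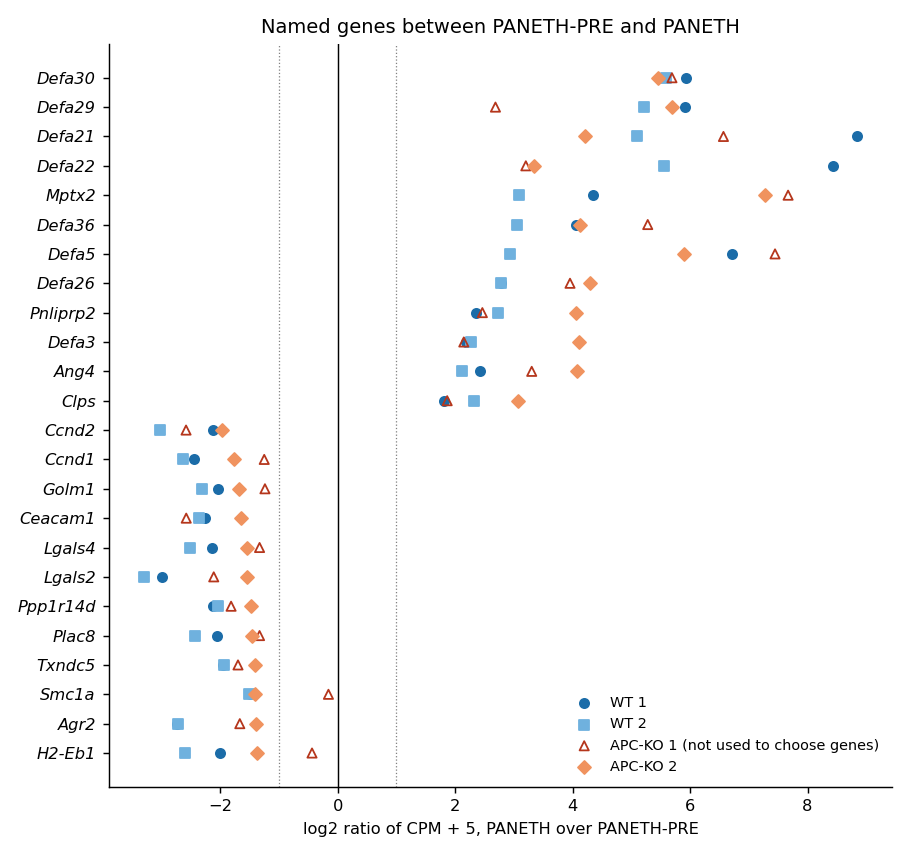
Log2 ratio of CPM + 5, PANETH over PANETH-PRE (horizontal axis), for the 24 named genes in each library, with dotted lines at the 2-fold limits. The 12 rises span ratios from 1.80 (Clps) to 8.84 (Defa21) in the 3 libraries used, and APC-KO replicate 1 (open triangles) lies on the same side of 0 for all 24.

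Antimicrobial genes other than defensins did not all move together. Of 18 listed, 11 were measured, and 4 of these were higher in PANETH (the markers Lyz1, Itln1, Mptx2 and Ang4). Another 1 was lower, and the median log2 ratio was 0.74. Among all measured genes 0.395% were higher and 8% lower. Reg3g, a lectin that kills Gram-positive bacteria, had 1548, 1686, 1243 and 529 CPM in the 4 PANETH sums and 562, 274, 289 and 361 in PANETH-PRE, short of 2-fold in APC-KO replicate 2. Reg3b and Reg4 had mean log2 ratios of 0.17 and 0.53. Reg4 was higher in the cells named EC (5057 CPM) than in PANETH (1910, 2161, 1326 and 2123). The lower gene was Pigr, the receptor that carries IgA into the lumen, at 924, 996, 851 and 936 CPM against 2334, 2281, 2341 and 2447. In PANETH the 4 Pigr values lay within a narrow range.

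Of the 12 granule and enzyme genes, all measured, 2 were higher (Clps and Pnliprp2) and 0 lower, with a median of -0.54. The shares of all measured genes were 0.395% and 8%. Mmp7, the defensin-cutting protease, had 4368, 6124, 3288 and 5067 CPM in PANETH and 5222, 5480, 3395 and 2614 in PANETH-PRE. It was therefore already abundant in the precursors. Spink4, a peptidase inhibitor of goblet and Paneth granules, had 22851, 12749, 16400 and 46113 CPM in PANETH against 49505, 26803, 53235 and 30206. Guca2a (guanylin) had 503, 244, 1105 and 1588 CPM in PANETH against 5150, 3700, 3806 and 3073 in PANETH-PRE, while Guca2b (uroguanylin) differed less, at 1270, 1368, 779 and 1325 against 2013, 1855, 1670 and 1145.

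The ligands by which Paneth cells act on stem cells were scarce transcripts. Of 15 listed, 5 were measured, with 0 higher and 1 lower (0.395% and 8% of all measured genes). Wnt3 was the most abundant, with 67.8, 67.1, 27.6 and 108 CPM in PANETH and 146, 153, 121 and 70.9 in PANETH-PRE, and was found in 55.7%, 45.5%, 25% and 48.9% of PANETH cells, against 0% to 0.370% of GOBLET cells. Dll4, a Notch ligand, had 8.13, 19.3, 11.1 and 23.3 CPM in PANETH, and the EGF family member Areg had 8.81, 29.5, 5.53 and 22.2. Egf itself stayed between 2.71 and 10.8 CPM. The lower one was Dll1, the Notch ligand of early secretory cells, at 10.2, 9.18, 11.1 and 14.1 CPM against 63.3, 103, 112 and 74.3. Dll1 was also lower per cell, at 0.142, 0.0950 and 0.0949 UMIs against 0.320, 0.459 and 0.336 in WT replicates 1 and 2 and APC-KO replicate 2. None of these 15 genes was enriched in PANETH by the 4-fold rule.

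Receptors of the niche signals gave 9 measured of 16, with 0 higher and 0 lower and a median of -1.04. Lgr4, a receptor for R-spondins, had 65.1, 75.4, 60.8 and 99.7 CPM in PANETH. Ephb3, which holds Paneth cells at the crypt base, had 38.6, 52.2, 27.6 and 123 CPM in PANETH and 86.0, 91.5, 37.3 and 59.6 in PANETH-PRE. Kit had 41.3, 46.4, 44.2 and 99.2 CPM, and its highest name was TUFT (260 CPM).

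Wnt target genes gave 12 measured of 19, with 0 higher and 2 lower (0.395% and 8% of all measured genes). Their median was -0.94, close to that of all genes. Sox9, a Wnt target needed for Paneth cells to form, had 126, 144, 171 and 163 CPM in PANETH against 344, 316, 364 and 218. Axin2, a feedback inhibitor of the Wnt pathway, had 6.78, 12.1, 11.1 and 26 CPM in PANETH and 32.5, 43.5, 37.3 and 56.6 in PANETH-PRE. Lgr5, the stem cell receptor, had 22.4, 15.9, 49.7 and 55.3 CPM in PANETH and 22.7, 9.15, 18.7 and 26.8 in PANETH-PRE. Lgr5 was at least 2 times higher per cell in PANETH, at 0.311, 0.165 and 0.372 UMIs against 0.115, 0.0408 and 0.121 in the 3 libraries. Nkd1, another feedback inhibitor and named after its values were seen, had 0.236, 0.235 and 0.139 UMIs per cell against 0.0656, 0.0102 and 0.0282.

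Secretory transcription factors were lower or near the median of all genes. Of 24 listed, 21 were measured, with 0 higher, 3 lower (Klf4, Creb3l1 and Cdx1) and a median of -0.96. Of all measured genes, 0.395% were higher and 8% lower. Atoh1 had 27.8, 30.9, 27.6 and 60.7 CPM in PANETH against 169, 183, 177 and 103. Spdef, which both goblet and Paneth maturation need, had 42.0, 43.5, 71.8 and 80.2 CPM against 167, 165, 187 and 157. Bhlha15 (Mist1, of secretory cell architecture) had 50.1, 64.7, 49.7 and 97.6 against 109, 133, 103 and 73.5, and Xbp1, of the unfolded protein response, had 119, 144, 82.9 and 111 against 245, 247, 280 and 187.

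By their median, genes of the endoplasmic reticulum and secretory path lay near the background of all genes. All 30 were measured, with 0 higher, 2 lower (Agr2 and Ssr2, against 8% of all measured genes) and a median of -1.07 against -0.93. Their sum was 6420, 7001, 8117 and 10325 CPM in PANETH and 26564, 26441, 22508 and 17532 in PANETH-PRE. In both WT libraries this sum, in which abundant genes such as Agr2 weigh most, was lower by more than the median gene. The chaperone Hspa5 (BiP) had 677, 832, 768 and 1265 CPM against 2451, 2109, 1362 and 1901. P4hb, a protein disulphide isomerase, had 499, 547, 387 and 821 against 1034, 1116, 1017 and 730.1. The median of the list without defensin, mitochondrial and ribosomal protein genes in the total was -0.67, against -0.63 for all genes.

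Other lists held few changes. Zinc and metal genes had 11 measured of 15, with 0 higher and 0 lower and a median of -0.89, and Slc30a2, a zinc transporter, had 21.7, 21.3, 11.1 and 49.9 CPM in PANETH. Autophagy and sensing genes had 13 measured of 22 with 0 in either direction and a median of -0.73, led by Rab2a (133, 151, 144 and 181 CPM). Proliferation genes had 11 measured of 26 with 0 in either direction and a sum of 210, 167, 602 and 553 CPM. Progenitor markers had 9 measured of 13 with 0 higher and 2 lower (Hes6 and Dll1), against 0.395% and 8% of all measured genes. Olfm4, a stem cell glycoprotein, had 262, 345, 282 and 263 CPM in PANETH against 102, 57.2, 28 and 508 in PANETH-PRE. Tuft, immune and stromal markers summed to 0 to 29.3 CPM in each PANETH sum.

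PANETH cells made up 2.20% of kept cells in WT replicate 1 (95% exact binomial interval 1.81% to 2.66%, counting error only), 5.23% in WT replicate 2 (4.55% to 5.99%), 4.49% in APC-KO replicate 1 (2.59% to 7.20%) and 4.39% in APC-KO replicate 2 (3.89% to 4.93%). Both APC-KO shares lay between the WT shares. The difference of means was 0.72 percentage points (WT 3.72% ± 2.14 and APC-KO 4.44% ± 0.0746, SD, n = 2 each; exact permutation test, two-sided, p = 1). It was -0.88 points (exact permutation p = 0.667) with the Lyz1-bearing cells and -0.79 points without WT replicate 1, so its direction depends on these choices. As a share of PANETH and PANETH-PRE together the values were 46.5%, 67.1%, 59.3% and 31.3%, and the groups overlapped (difference -11.5 points, exact permutation p = 0.667). PANETH-PRE made up 2.53%, 2.56%, 3.09% and 9.64% of kept cells, so the lowest lineage share, in APC-KO replicate 2, went with the highest PANETH-PRE share, while its PANETH share lay between the WT values. A sort fixes what these shares count.

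Between the WT and APC-KO libraries, PANETH cells differed in the levels of single alpha-defensins. The labels give no strain, so loss of Apc cannot be told apart here from another difference between the mouse lines. Defa35 had 33.2 and 15.9 CPM in the WT sums and 2857 and 10924 in the APC-KO sums. Defa27 had 0 and 2.90 CPM in WT and 260 and 2816 in APC-KO. In the opposite direction, Defa22 had 3970 and 551 CPM in WT and 127 and 49.3 in APC-KO, and Defa26 had 2596 and 2115 against 652 and 108. All 4 differences passed edgeR's quasi-likelihood test with Benjamini-Hochberg adjustment (log2 fold changes APC-KO minus WT of 7.44, 9.14, -5.40 and -3.10, SE 0.66, 0.93, 0.80 and 0.64, adjusted p = 2.94e-06, 1.59e-05, 0.00101 and 0.0182). With Lyz1-bearing cells only, Defa35 and Defa27 passed (7.72 and 9.34, edgeR adjusted p = 0.000409 and 0.000878), while Defa22 (-4.90, 0.0603) and Defa26 (-2.51, 0.246) did not. The same test in PANETH-PRE gave a lower Defa26 in APC-KO (-7.16, edgeR adjusted p = 3.40e-08). Defa35 (-0.53, 0.8355) and Defa27 (1.53, 0.178) did not pass there. For counts within cells, Defa27 and Defa35 were set against Defa21, Defa22, Defa26 and Defa36, groups chosen with the values of these sums known. Such counts describe the cells and add no test, since cells are not replicates. Every PANETH cell of both WT libraries (106 and 200) had at least 5 UMIs of Defa21, Defa22, Defa26 and Defa36 together and 0 had 5 of Defa27 and Defa35. In APC-KO replicate 2, 217 of 274 cells had the reverse, 22 had at least 5 of both groups and 35 of neither. In APC-KO replicate 1, 1 of 16 cells had only Defa27 and Defa35, 1 only the other group, 4 both and 10 neither. There 8 cells had more UMIs of the other group and 1 had more of Defa27 and Defa35 (1572 against 564 UMIs in all), and Defa36 stood at 7437 CPM against 7628 and 2058 in WT and 102 in APC-KO replicate 2. The reversed pattern within cells thus comes from APC-KO replicate 2 alone. A single cell of 52913 UMIs gave 26 of the 47 Defa27 UMIs, 17 of the 23 Defa22 UMIs and 837 Defa36 UMIs in APC-KO replicate 1. Whether it is a doublet was not tested. In APC-KO replicate 2, 5 of 274 cells had any Defa22 and 2 had any Defa21. There 1 cell gave 87 of the 91 Defa22 UMIs and 161 of the 162 Defa21 UMIs. Of all PANETH-PRE cells of WT, 1 in WT replicate 2 had Defa27 and Defa35 (27 and 117 UMIs) and none of the other group, and its barcode was in no other library's kept cells.

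Across all genes, 98 of 6942 tested in PANETH (1.41%) passed an adjusted p of 0.05, 41 higher in APC-KO (0.591%) and 57 lower (0.821%), and 837 (12.1%) had an unadjusted p under 0.05. Groups did not overlap for 47.6% of the genes tested. The count rested on single libraries: leaving out WT replicate 2 gave 0 calls by edgeR (137 genes at an unadjusted p under 0.05), and leaving out WT replicate 1 gave 14. Dropping APC-KO replicate 2 left 18 calls, and dropping APC-KO replicate 1 gave 225. In these fits the lone sample is assumed to vary like the other group. With Lyz1-bearing cells only, 20 of 6970 genes (0.287%) passed, 5 higher and 15 lower, and 19 of these 20 were among the 98. With each cell thinned to 2000 UMIs 0 of 2432 passed in edgeR (236 at an unadjusted p under 0.05).

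None of the 5 markers passed, and all 5 had a negative log2 fold change, with a median of -1.28 against -0.01 for all genes tested. Lyz1 gave -1.30 (SE 0.46, edgeR adjusted p = 0.207), Itln1 -1.58 (adjusted p = 0.133), Mptx2 -1.28 (0.244), Ang4 -1.12 (0.340) and Defa24 -0.72 (0.648). With Lyz1-bearing cells only the values were smaller in size, from -1.10 (Itln1) to -0.25 (Defa24). That choice of cells uses a marker and drops mainly APC-KO cells, so part of the smaller size is built in. In PANETH-PRE, where 85 of 5568 genes (1.53%) passed the same test, Lyz1 (-2.15, adjusted p = 0.00709), Mptx2 (-5.21, 3.66e-08) and Ang4 (-1.91, 0.0145) were lower in APC-KO. Of 16 alpha-defensins tested in PANETH, 2 rose and 5 fell (0.591% and 0.821% of all genes). Groups did not overlap for 8 of the 16, a share near the 47.6% of all genes.

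Of the 98 genes, 58 met the rule for naming, and the 10 largest rises and falls are described here. Mt1 and Mt2, the metallothioneins that bind zinc, had 58.9 and 32.9 CPM (Mt1) and 7.45 and 1.93 CPM (Mt2) in WT, and 928 and 173, and 122 and 38.5, in APC-KO. Their log2 fold changes were 3.09 (SE 0.61, edgeR adjusted p = 0.0129) and 2.98 (SE 0.61, 0.0175), and in PANETH-PRE they were 2.12 and 3.58. Dmbt1, a mucosal scavenger protein, had 29.8 and 14.5 CPM in WT and 188 and 185 in APC-KO (2.49, SE 0.37, 0.00101). S100a6, a calcium-binding protein, had 26.4 and 12.1 CPM in WT and 55.3 and 216 in APC-KO (2.40, SE 0.41, 0.00410). It was found in 98.8% to 100% of GOBLET cells, at medians of 11 to 15 UMIs. Among the 274 PANETH cells of APC-KO replicate 2, 25 had at least 5 S100a6 UMIs. Whether goblet-like cells account for this was not tested. Dmbt1 and S100a6 were higher in APC-KO in PANETH-PRE too (2.50 and 2.42, edgeR adjusted p = 0.000324 and 4.13e-05). Tfpi, an inhibitor of coagulation, rose from 5.42 and 6.76 to 22.1 and 48.8 CPM. Of these 5 genes only S100a6 and Tfpi passed with Lyz1-bearing cells (adjusted p = 0.0411 and 0.0323), while Mt1, Mt2 and Dmbt1 did not (0.103, 0.197 and 0.0849). The log2 fold changes in those cells were 3.54 for Mt1, 2.78 for Mt2 and 1.77 for Dmbt1. S100a6 and Tfpi rested on few UMIs in APC-KO replicate 1. Over all 16 PANETH cells there, 1 cell gave 9 of the 10 S100a6 UMIs, and Tfpi had 4 UMIs in 3 cells.

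A few enterocyte genes were higher in the APC-KO sums, with the highest values in APC-KO replicate 1. Fabp1 (a fatty acid binding protein of enterocytes) had 15.6 and 15.9 CPM in WT and 403 and 54.7 in APC-KO, and Rbp2 (retinol binding) had 21.7 and 15.5 against 354 and 58.5. Of 11 enterocyte markers tested, 3 rose (Fabp1, Rbp2 and Apoa1), 0 fell, 9 had a positive log2 fold change, and no groups overlapped for the 11 (0.591% and 47.6% of all genes were called higher and did not overlap). Free RNA held 2493 CPM of Fabp1 in APC-KO replicate 1 and 535 to 673 in the other libraries, and its part in the difference was not tested. The summed level of the 14 enterocyte markers was 256 and 258 CPM in WT, 1713 in APC-KO replicate 1 and 596 in APC-KO replicate 2, and with Lyz1-bearing cells only the APC-KO sums held 510 and 562 CPM. Fabp1, Rbp2 and Apoa1 lost their call without APC-KO replicate 1 (Fabp1 0.98, Rbp2 0.87 and Apoa1 1.28) and with Lyz1-bearing cells (edgeR adjusted p = 0.177, 0.353 and 0.263).

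Mki67 and Top2a, of dividing cells, had 9.49 and 8.70 CPM and 15.6 and 5.80 CPM in WT, and 77.4 and 45.5, and 55.3 and 60.2, in APC-KO (log2 fold changes 1.83 and 1.85, edgeR adjusted p = 0.0191 and 0.0197). They were the 2 of 14 proliferation genes tested that rose (0.591% of all genes did), 0 fell, 12 of 14 did not overlap (47.6% of all genes), and the median was 0.81. Mki67 was higher in PANETH-PRE too (1.49, adjusted p = 0.0267). Neither passed with Lyz1-bearing cells (edgeR adjusted p = 0.112 and 0.258), among which Top2a had 0 CPM in APC-KO replicate 1. Hist1h2ae, a histone gene, rose from 7.45 and 1.45 to 116 and 30.4 CPM and had 0 CPM in the Lyz1-bearing cells of APC-KO replicate 1. Goblet markers gave 0 calls of 10 by edgeR, and all 10 had a positive log2 fold change, with a median of 0.69. Their summed level was 30285 and 18956 CPM in WT and 31054 and 77222 in APC-KO, and Zg16, a lectin of the mucus, had 863 and 811 against 1641 and 10540 (2.15, SE 0.54, adjusted p = 0.0529). The part that cells with few Paneth markers have in these differences was not tested beyond the counts given.

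Among the falls outside the defensins, Bambi, a decoy receptor of the TGF-beta family, had 60.3 and 91.3 CPM in WT and 22.1 and 8.13 in APC-KO (log2 fold change -3.64, SE 0.42, edgeR adjusted p = 7.61e-05). It was found in 41.5% and 47.0% of WT PANETH cells, in 4 of 16 cells of APC-KO replicate 1 and in 5.11% of those of APC-KO replicate 2, against 0% of GOBLET cells in every library. Casc4, a Golgi membrane protein, had 38.6 and 44.0 CPM against 11.1 and 9.76 (-2.77, SE 0.37, 0.000295), and it was lower in PANETH-PRE too (-2.65, adjusted p = 4.13e-05). Ppp1r15a (Gadd34, which ends the translation block of the stress response) had 67.8 and 120 CPM against 33.2 and 28.2 (-2.36, SE 0.36, 0.00130). Its PANETH-PRE level was lower in APC-KO too (-1.58, edgeR adjusted p = 0.0135). These 3 passed also with Lyz1-bearing cells (0.00355, 0.00525 and 0.0148). Lgmn (a lysosomal protease), Neurl3 (a ubiquitin ligase) and Pnliprp2 had log2 fold changes of -2.14, -2.17 and -2.12, and none passed with those cells. Lgmn and Pnliprp2 were lower in PANETH-PRE too (-2.05 and -2.84, edgeR adjusted p = 0.00039 and 1.93e-06), and Neurl3 did not pass there (-0.07, 0.975). Defa20 and Defa21 were the other 2 of the 10, and with Lyz1-bearing PANETH cells Defa20 passed (edgeR adjusted p = 0.0473) while Defa21 did not (-2.68, 0.280).

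**Figure D4:**
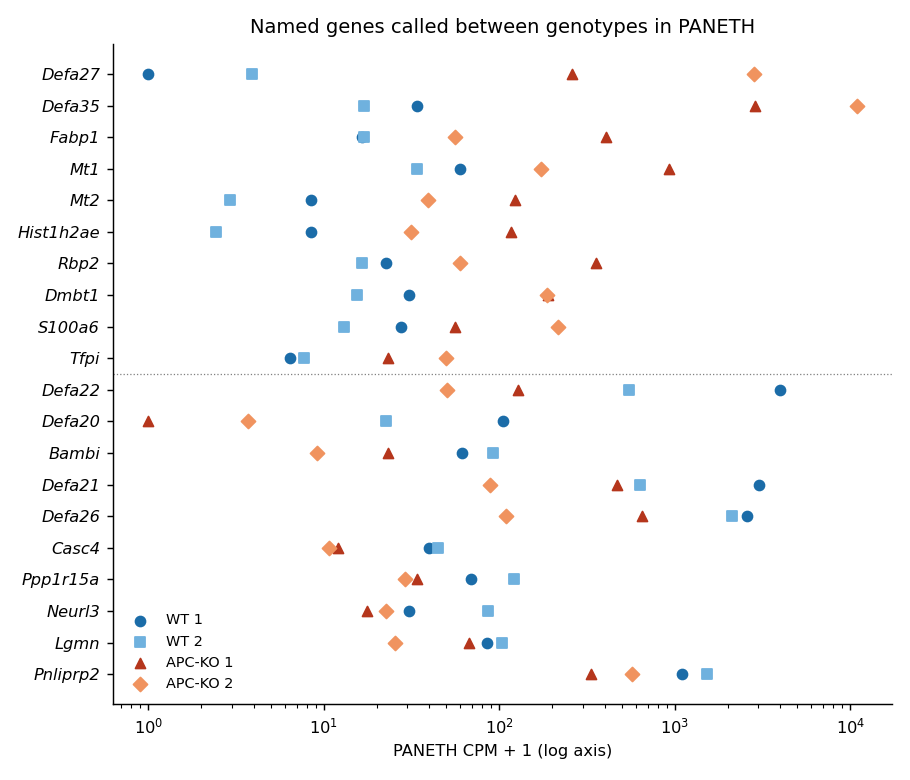
CPM + 1 of the 20 named genes in the PANETH sum of each library (horizontal log axis), rises in APC-KO above the dotted line and falls below it. No gene's groups overlap, which the rule required, and APC-KO replicate 1 has the highest value for Fabp1, Mt1, Mt2, Hist1h2ae, Rbp2 and Dmbt1 while APC-KO replicate 2 has it for Defa27 and Defa35.

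Stress and immediate early genes, which dissociation can induce, were tested as a list of other signals. Of 14 tested, 0 rose and 2 fell (Atf3 and Zfp36), against 0.591% and 0.821% of all genes. Of the 14, 12 had a negative log2 fold change, with a median of -1.18 against -0.01 for all genes. Groups did not overlap for 5 of the 14, a share under the 47.6% of all genes. Atf3 had 375 and 645 CPM in WT and 215 and 243 in APC-KO (-1.70, SE 0.36, edgeR adjusted p = 0.0197), and Zfp36 had 110 and 228 against 116 and 41.2 (-1.96, SE 0.48, 0.0403), so its groups overlapped. Neither passed with Lyz1-bearing cells (edgeR adjusted p = 0.149 and 0.295). The summed level was 3204 and 5693 CPM in WT and 2713 and 3147 in APC-KO.

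Niche ligands, their receptors, Wnt targets and endoplasmic reticulum genes gave no call in either direction, of 4, 10, 13 and 30 tested. The medians were -0.28, 0.00, -0.07 and -0.18. Wnt3 (-0.36, edgeR adjusted p = 0.736), Sox9 (-0.29, 0.787), Lgr5 (0.83, 0.268) and Axin2 (0.59, 0.608) were among them. A p above the threshold with 2 libraries a group does not show that levels were equal.

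Whether the genotype difference in PANETH was that of PANETH-PRE was tested in 1 fit over all 8 sums, with the library as a block. The difference between the types passed for 24 of 7839 genes (0.306%), 19 higher and 5 lower, and 11 met the rule for naming. Mptx2 had the clearest pattern among abundant genes. Its PANETH levels (10450, 13192, 8609 and 4880 CPM) differed far less between genotypes than its PANETH-PRE levels (506, 1540, 37.3 and 26.5), a difference of 3.26 on the log2 scale (SE 0.50, edgeR adjusted p = 5.38e-05). Ccl9, a chemokine, had 157 and 107 CPM in WT PANETH and 210 and 610 in APC-KO PANETH, against 1987 and 2251, and 998 and 1161, in PANETH-PRE (2.04, SE 0.36, 0.000974). Guca2a (1.74, adjusted p = 0.00833), Klk1, a tissue kallikrein (1.61, 0.00833), and Tpsg1, a tryptase (1.67, 0.00550), were also higher in both APC-KO sums than in both WT sums of PANETH, while their PANETH-PRE sums overlapped or were lower in APC-KO. H2-Aa (1.59, 0.0117), an MHC class II chain, and Gsto1, a glutathione transferase (1.34, 0.0407), followed.

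Defa27 and Defa35 gave the largest differences between the types, 8.70 (SE 0.68, edgeR adjusted p = 3.48e-13) and 7.99 (SE 0.88, 2.11e-08). The PANETH-PRE level of Defa35 in WT replicate 2 (268 CPM) came from 1 cell with all 117 UMIs. The Defa35 difference turned to -1.86 without WT replicate 2 and to -1.34 without the tenth of cells with the most UMIs. Cdkn1a (p21, a cell cycle inhibitor) and Neurl3 went the other way, at -1.89 (SE 0.39, 0.00833) and -1.96 (SE 0.43, 0.0146). Cdkn1a had 88.1 and 215 CPM in WT PANETH and 55.3 and 75.3 in APC-KO PANETH, against 101, 96.1, 298 and 95.2 in the 4 PANETH-PRE sums. By edgeR the count of 24 became 1 when WT replicate 2 was left out, 2 when APC-KO replicate 2 was left out, and 79 with Lyz1-bearing cells, so it rests on few libraries.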

How the data were processed

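The PANETH members, gene lists and tests were chosen with earlier results of these data known. Libraries were made with the 10x 3′ v3.1 chemistry, per the labels' protocols, and processed with Cell Ranger 3.0.2 and STAR against mm10, per the submitters' processing notes. The authors deposited raw UMI counts per gene and barcode, with no normalization, and per-cell tables with each kept cell's Celltype name, UMI and gene numbers and mitochondrial percent. The authors' Celltype names were used as deposited and no doublet caller was run. All 31053 genes were used, and 99.6% of their IDs matched GENCODE vM21.

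UMIs were summed per library and Celltype. Levels are CPM, and a 3′ count needs no length scaling. Ratios used log2(CPM + 5). Genotypes were compared over libraries with edgeR 4.0.16 (TMM, filterByExpr, quasi-likelihood test, Benjamini-Hochberg 0.05, R 4.3.3). On simulated counts with 200 genes changed, edgeR recovered 182 for genotype (6549 genes, 7.61% of calls false) and 159 for the difference between types (7376 genes, 5.92%). Depth per PANETH sum ran from 180977 to 2069916 UMIs, and binomial intervals cover counting error only. Genes named were the 5 markers, list members (up to 8 a list, by level or call), the 12 largest rises and falls (100 CPM) or enriched genes, and the 10 largest called rises and falls between genotypes with 20 CPM and no overlap. Gene models and mitochondrial genes were only counted. Alternatives were DESeq2 1.42.0, other filters, thinning to 2000 UMIs, free RNA subtraction, leaving out libraries, genes or cells, and a replicate block.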

Additional observations from a re-analysis of the deposited data

Results flagged for a closer look

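For 11 genes the change from PANETH-PRE to PANETH differed between APC-KO and WT by the edgeR test of that difference (4 libraries, 8 sums, library as a block). Higher in APC-KO on the log2 scale were Defa27 by 8.70, Defa35 by 7.99, Mptx2 by 3.26, Ccl9 by 2.04, Guca2a by 1.74, Tpsg1 by 1.67, Klk1 by 1.61, H2-Aa by 1.59 and Gsto1 by 1.34. Lower were Neurl3 at -1.96 and Cdkn1a at -1.89. All 11 also passed with PANETH cells of at least 10 Lyz1 UMIs (H2-Aa, the highest adjusted p by edgeR, 0.00539). The Defa35 value changed sign without WT replicate 2 (-1.86) and without the tenth of cells with the most UMIs (-1.34). All 11 lost their call when WT replicate 2 was left out, and all but Defa27 when APC-KO replicate 2 was left out.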

How the results depend on the processing

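Adjusted p-values here are from edgeR unless named. The difference in the PANETH share (0.72 percentage points) turned to -11.5 as a share of PANETH and PANETH-PRE together and to -0.88 with cells of at least 10 Lyz1 UMIs, and ran from -0.79 to 2.24 when 1 library was left out. Genes higher in PANETH than PANETH-PRE (28) became 45 with a prior of 1 CPM. Genes lower (536) became 1138 with a prior of 1 CPM, 190 with 20 CPM, 87 without mitochondrial, ribosomal protein and defensin genes, 843 with free RNA subtracted, 240 without the tenth of cells with the most UMIs, 295 over all 4 libraries, and 660 to 2845 when 1 library was left out. Genotype calls (98) became 34 by the DESeq2 Wald test (15 shared, adjusted p missing for 6460 genes), 205 with no filter, 20 with at least 10 Lyz1 UMIs, 24 with at least 5% marker UMIs (chosen after seeing the data), 0 of 2432 when thinned to 2000 UMIs (236 at an unadjusted p under 0.05), and 0 to 225 when 1 library was left out. Calls for the difference between types (24) became 4 by the Wald test, 47 with free RNA subtracted, 14 without the left-out gene groups, 2 with no filter, 79 with either choice of marker-bearing cells, 4 when thinned, and 1 to 19 when 1 library was left out. Spink4 between genotypes (0.13) was -0.079 when thinned and -0.47 to 0.73 when 1 library was left out, and the Defa35 difference between types was -1.34 without the tenth of cells with the most UMIs and -1.86 to 10.31 when 1 library was left out. The cause was not tested. With the replicate number as a block, 124 genes were called (88 shared with the 98). Deviations of WT replicate 1 and APC-KO replicate 1 correlated at 0.0221 over 6942 genes, so the numbers are not shown to pair the libraries. The 16 cells of APC-KO replicate 1 limit depth.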
